A study of Mus musculus with 72 samples.

Results

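The 9 genes described here encode enzymes of bile acid synthesis and conjugation (Cyp7a1, Cyp8b1, Cyp27a1, Cyp7b1, Hsd3b7, Akr1d1, Cyp2c70, Slc27a5 and Baat). They were chosen by name, by matching the Ensembl identifiers of the count table to these symbols, and make up 9 of the 55573 genes in the table. Counts were present for 8 of the 9, and these 8 passed the filter on low counts in every comparison. Hsd3b7, which oxidizes the sterol ring early in the pathway, had 0 counts in all 72 libraries. In the annotation, 2746 of its 2769 exon bases (99.2%) were shared with other genes, and the counting left out reads that overlapped more than 1 gene. Its zeros are therefore no measure of its expression, and Hsd3b7 was not tested. None of the other 8 shared an exon base with another gene.

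The liver turns cholesterol into bile acids by a classic pathway, which Cyp7a1 opens, and an alternative pathway, in which Cyp27a1 and Cyp7b1 act first. Cyp8b1 steers intermediates toward cholic acid, and in mice Cyp2c70 makes the muricholic acids. Gut microbes deconjugate and modify bile acids, the intestine and liver sense them through the receptor FXR, and the classic pathway is known both for feedback by this route and for a daily rhythm.

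Livers came from adult male mice, given as C57BL/6 in the labels and as C57BL/6J in the methods of the study, and every mouse carried Bmal1 fl/fl, that is, loxP-flanked Bmal1, the gene of a core activator of the circadian clock. WT mice had these alleles alone. LKO mice also carried Albumin-Cre, which is driven by the albumin promoter, a promoter active in hepatocytes. Which cells of these livers had lost Bmal1 was not measured. Both genotypes were kept either specific-pathogen free (SPF) with their microbes or germ free (GF), and 3 mice per group were sampled at each of 6 zeitgeber times (ZT, hours after lights on), every 4 h from ZT2 to ZT22. This gave 4 groups of 18 libraries (SPF WT, GF WT, SPF LKO, GF LKO), 1 from each mouse, with 17369927 to 22076113 counts per library. Levels below are counts per 1000000 (CPM) after scaling by edgeR's TMM factors, and each member except Hsd3b7 had at least 534 counts in every library.

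The deleted gene, listed as Arntl, was counted as a whole, so its level alone did not check the genotype. It ran from 0.624 to 39.9 CPM in SPF WT, from 0.331 to 40.6 in GF WT, from 7.04 to 13.4 in GF LKO and from 8.52 to 29.2 in SPF LKO. Npas2, a clock gene related to Clock, reached at most 10.1 CPM in SPF WT and 12.8 in GF WT, and was at least 16.9 in GF LKO. Npas2 was at 0.219 CPM in the ZT14 library labelled SPF LKO replicate 2 and at 1.82 in the ZT18 library labelled SPF LKO replicate 1, while the other 16 SPF LKO libraries had 14.4 or more. Arntl was also unlike its neighbours in SPF WT ZT14 replicate 3 (2.12 CPM beside 15.8 and 19.5) and in GF WT ZT6 replicate 3 (8.21 beside 1.62 and 2.43). All 72 libraries were kept under their labels, and the tests of the members were computed again without these 4. Values of the cell type markers, other enzymes, regulators and correlations below are given with all 72 libraries only. As the 4 were picked by clock genes that vary with genotype or time, leaving them out can by itself widen such differences.

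As bulk liver RNA, the samples cannot tell fewer cells of a type from less RNA per cell. All 5 hepatocyte markers were abundant, but they did not stay level. In GF WT against SPF WT mice 4 of the 5 rose, with a list median of 0.39 on the log2 scale, and in GF LKO against SPF LKO mice 3 rose and 1 (Alb) fell, with a median of 0.31 (31.8% and 36.4% of all genes tested passed in either direction). In LKO against WT mice 1 (Alb) fell under SPF and 2 (Alb and Ttr) under GF conditions, where 23.1% and 30.8% of all genes passed. Alb, whose promoter also drives the Cre, had a median of 83712 CPM in SPF WT, 36414 in SPF LKO, 104308 in GF WT and 32079.5 in GF LKO. The other 4 summed to medians of 19961, 19735, 27140.0 and 25981 CPM in the same order. Summed markers of Kupffer cells ran from 173 to 443 CPM in SPF WT, 168 to 268 in SPF LKO, 140.4 to 284 in GF WT and 105 to 248 in GF LKO, and 4 of the 5 fell in SPF LKO against SPF WT mice. Over all libraries, summed markers of endothelial cells ran from 93.8 to 152 CPM, of stellate cells from 208 to 409.9, of cholangiocytes from 26.98 to 162, of leukocytes from 4.97 to 35.5, of pericentral hepatocytes from 6986 to 17716 and of periportal hepatocytes from 1162 to 2107. These ranges hide shifts between groups. The cholangiocyte sum had a median of 43.78 CPM in GF WT and 91.01 in GF LKO mice, where Spp1 and Sox9 rose (log2 1.18 and 0.78). The leukocyte marker Ptprc fell without microbes in WT (-0.71) and LKO mice (-0.58). Of the 5 pericentral markers 3 rose in GF WT against SPF WT mice. In GF LKO against GF WT mice 1 of them rose and 3 fell. Some endothelial, stellate and periportal markers passed too. The part of these markers in the results below was not tested.

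Positions are given in GRCm38. Cyp7a1 spans chr4:6265612-6275633 and Baat chr4:49489422-49506557, Cyp8b1 chr9:121914356-121916305, Cyp27a1 chr1:74713574-74737892, Cyp7b1 chr3:18071950-18243338, Cyp2c70 chr19:40153353-40187333, Slc27a5 chr7:12988346-12998192, Hsd3b7 chr7:127800604-127803802 and Akr1d1 chr6:37530173-37568815. RefSeq promoters of GRCm38.p6, 250 bases before to 50 after the start site, were matched for 5 of the 9. The windows were searched on both strands for the E-box CACGTG, which BMAL1 with CLOCK binds, the D-box TTATGTAA, and AGGTCA, the hexamer that many nuclear receptors bind. Of 32851 promoters of this length, 7.15% held the E-box, 0.938% the D-box and 16.3% the hexamer. The 3 promoters below are shown because Cyp2c70 and Akr1d1 moved in opposite directions with the deletion and Cyp8b1 changed its daily pattern, and capitals mark the hexamer on either strand. They lie at chr19:40187237-40187536 (minus strand), chr6:37529923-37530222 (plus strand) and chr9:121916256-121916555 (minus strand).
Cyp2c70: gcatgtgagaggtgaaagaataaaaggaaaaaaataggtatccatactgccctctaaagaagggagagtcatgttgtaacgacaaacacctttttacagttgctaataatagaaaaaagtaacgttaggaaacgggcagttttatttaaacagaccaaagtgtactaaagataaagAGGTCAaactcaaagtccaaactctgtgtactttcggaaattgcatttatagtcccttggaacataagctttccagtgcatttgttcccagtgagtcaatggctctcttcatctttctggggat
Akr1d1: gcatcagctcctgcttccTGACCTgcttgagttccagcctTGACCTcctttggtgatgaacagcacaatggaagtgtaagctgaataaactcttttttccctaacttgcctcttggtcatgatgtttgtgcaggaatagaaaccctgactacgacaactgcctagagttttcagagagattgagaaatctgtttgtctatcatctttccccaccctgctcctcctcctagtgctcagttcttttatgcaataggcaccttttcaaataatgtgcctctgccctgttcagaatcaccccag
Cyp8b1: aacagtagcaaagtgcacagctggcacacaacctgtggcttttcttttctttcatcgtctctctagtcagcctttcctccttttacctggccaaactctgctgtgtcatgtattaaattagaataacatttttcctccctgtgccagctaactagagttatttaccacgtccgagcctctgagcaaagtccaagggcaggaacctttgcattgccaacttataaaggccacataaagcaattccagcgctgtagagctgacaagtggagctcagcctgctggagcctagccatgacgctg
Cyp2c70 held 1 hexamer, on its own strand at -74 from the start site, and Akr1d1 held 2 on the other strand, at -232 and -210. Cyp8b1 held none of the 3 motifs in this window, nor did Cyp27a1 or Hsd3b7.

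Per kilobase of exon, Cyp2c70 had the highest mean of the members in every group and Cyp7a1 or Akr1d1 the lowest. By median, Slc27a5 (430 CPM per kilobase) was above Cyp2c70 (389) in SPF WT mice. In SPF WT mice Cyp2c70 had a mean level of 440.0 ± 138 CPM per kilobase (SD, n = 18) and Slc27a5 438 ± 38.3, a pair that did not differ beyond its spread. Cyp27a1 (220.0 ± 25.2), Baat (200.3 ± 35.3) and Cyp7b1 (192 ± 61.6) followed as neighbours within their spread, then Akr1d1 (110.2 ± 30.9) and Cyp8b1 (106 ± 57.6), and Cyp7a1 came last at 34.9 ± 22.5. In GF LKO mice Cyp2c70 stood at 1234 ± 221 CPM per kilobase and Cyp7b1 had moved from the fifth place in SPF WT to the second, at 644 ± 118. The lowest places in GF LKO mice were shared by Cyp7a1 (84.6 ± 66.7) and Akr1d1 (84.1 ± 14.7). Together the 8 took a median of 0.381% of all counts in SPF WT, 0.526% in SPF LKO, 0.456% in GF WT and 0.694% in GF LKO libraries.

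**Figure D1:**
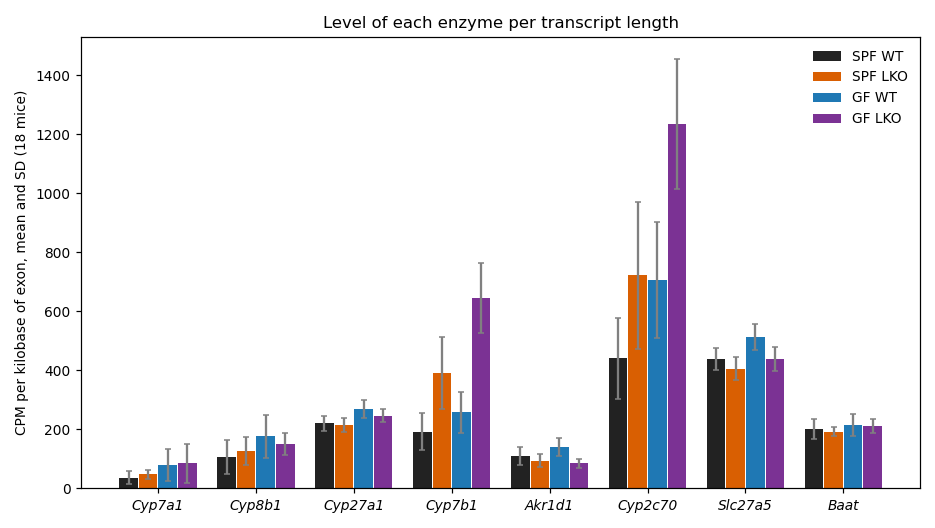
Mean level of the 8 counted enzymes in CPM per kilobase of exon (bars, from 0) with the SD over 18 mice, by group. Cyp2c70 had the highest mean in all 4 groups, though in SPF WT mice it did not differ from Slc27a5 beyond the spread. The means of Cyp7b1 and Cyp2c70 were each highest in GF LKO mice.

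The first question was how the enzymes differed between mice with and without microbes. With ZT pooled, 7 of the 8 members passed between GF WT and SPF WT mice, each higher without microbes (Baat did not pass), where 31.8% of all 12776 genes tested passed in either direction, in edgeR's quasi-likelihood F test at a Benjamini-Hochberg adjusted p of 0.05. In LKO mice 5 of the 8 passed, each higher without microbes (Cyp7a1, Cyp27a1, Cyp7b1, Cyp2c70 and Baat), against 36.4% of 13010 genes. No member passed as lower without microbes in either genotype. The median of all genes tested was -0.02 on the log2 scale in both comparisons.

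Cyp7a1, the rate-limiting hydroxylase of the classic pathway, ran from 25.01 to 299 CPM in SPF WT mice (median 149) and from 35.2 to 718 in GF WT mice (median 343). It ran from 77.3 to 311 in SPF LKO mice (median 189.8) and from 81.6 to 885 in GF LKO mice (median 244). The groups overlapped, since each range spans the daily cycle. Cyp7a1 was 2.21-fold higher in GF than in SPF WT mice (log2 fold change 1.14 ± 0.38 SE, adjusted p = 0.0193) and 1.80-fold higher in GF than in SPF LKO mice (0.85 ± 0.28, adjusted p = 0.0179). In WT mice the GF mean was above the SPF mean at 6 of 6 ZT, and in LKO mice at 4 of 6. With ZT as a covariate the difference between the LKO groups no longer passed (0.49, adjusted p = 0.081).

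Cyp8b1, whose hydroxylation is required for cholic acid, had medians of 198 CPM in SPF WT (34.6 to 507) and 349 in GF WT (127 to 629), which was 1.64-fold higher (log2 fold change 0.71 ± 0.23 SE, adjusted p = 0.0181). In LKO mice the medians were 243 (101 to 419) and 284 (159 to 448), and a log2 difference of 0.25 ± 0.15 SE did not pass (adjusted p = 0.197). All 4 ranges overlapped.

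In the alternative pathway, the mitochondrial side-chain hydroxylase Cyp27a1 moved little. It ran from 374 to 578 CPM in SPF WT and 481 to 714 in GF WT mice, with a log2 fold change of 0.27 ± 0.06 SE (adjusted p = 0.000412), and from 371 to 556 in SPF LKO and 439 to 609 in GF LKO mice (0.20 ± 0.05, adjusted p = 0.00306). Cyp7b1, the oxysterol hydroxylase that follows it, ran from 161 to 733 CPM in SPF WT mice (median 386) and from 334 to 789 in GF WT mice (median 595), a 1.33-fold difference (log2 0.41 ± 0.14 SE, adjusted p = 0.0241). Between LKO mice the step was 1.64-fold (0.72 ± 0.13, adjusted p = 5.39e-05), from 289.6 to 1337 CPM in SPF LKO mice (median 872) to 956 to 1895 in GF LKO mice (median 1429). Both pairs of ranges overlapped.

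Cyp2c70, which forms the muricholic acids of rodents, had medians of 771 CPM in SPF WT, 1394 in GF WT, 1398 in SPF LKO and 2367 in GF LKO mice. The GF over SPF fold was 1.59 in WT (log2 0.67 ± 0.14 SE, adjusted p = 0.000431) and 1.70 in LKO mice (0.77 ± 0.13, adjusted p = 1.48e-05), and the GF mean was the higher at all 6 ZT in both genotypes. The ring reductase Akr1d1 was 1.26-fold higher in GF WT mice (log2 0.34 ± 0.12, adjusted p = 0.0286), with medians of 314 and 434 CPM. In LKO mice its medians were 252 (SPF) and 244 (GF), and the log2 difference was -0.14 ± 0.10 (adjusted p = 0.256).

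The conjugation enzymes were nearly level. Slc27a5, the ligase that couples bile acids to coenzyme A, was 15.9% higher in GF WT mice (log2 0.21 ± 0.05 SE, adjusted p = 0.00058), with ranges of 911 to 1230.4 and 965 to 1479 CPM, and had a log2 difference of 0.11 ± 0.05 in LKO mice (adjusted p = 0.0655). Baat, which joins the activated acid to taurine or glycine, differed by 0.09 ± 0.08 between WT groups (adjusted p = 0.446) and was 9.74% higher in GF LKO than in SPF LKO mice (0.13 ± 0.05, adjusted p = 0.0361). The Baat call was lost (adjusted p 0.0505 to 0.0642) without any one of SPF LKO ZT6 replicate 1, ZT6 replicate 3 or ZT10 replicate 2, or GF LKO ZT14 replicate 3, ZT18 replicate 2, ZT22 replicate 2 or ZT22 replicate 3. It was also lost with no filter on low counts (adjusted p = 0.0757) and with a fit on all libraries (0.115). Slc27a5 passed in LKO mice (adjusted p 0.0333 to 0.0498) without any one of SPF LKO ZT6 replicate 3, ZT10 replicate 3 or ZT18 replicate 1, or GF LKO ZT18 replicate 1 or ZT22 replicate 3.

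Each call was also fitted with all libraries of 1 replicate number left out, which leaves 2 mice per group and ZT. In WT mice Cyp7a1, Cyp8b1 and Akr1d1 then lost their calls without number 2 or 3 and Cyp7b1 without number 1 or 2 (adjusted p 0.109 to 0.274). In LKO mice Cyp7a1 (0.0968 and 0.0834) and Baat (0.35 and 0.139) lost theirs without number 2 or 3, and Cyp27a1 without number 1 (0.0583).

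Without the 4 doubted libraries, 7 of 8 members passed in WT mice (32% of all genes) and 6 of 8 in LKO mice (36.7%), where Slc27a5 was added (log2 0.13 ± 0.05, adjusted p = 0.0288). The increases of Cyp27a1, Slc27a5 and Akr1d1 in GF WT mice (log2 0.27, 0.21 and 0.34) were below the median of 0.39 of the 5 hepatocyte markers in the same comparison. In GF LKO mice those of Cyp27a1 and Baat (0.20 and 0.13) were below the marker median of 0.31. Whether the markers' rise accounts for them was not tested.

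**Figure D2:**
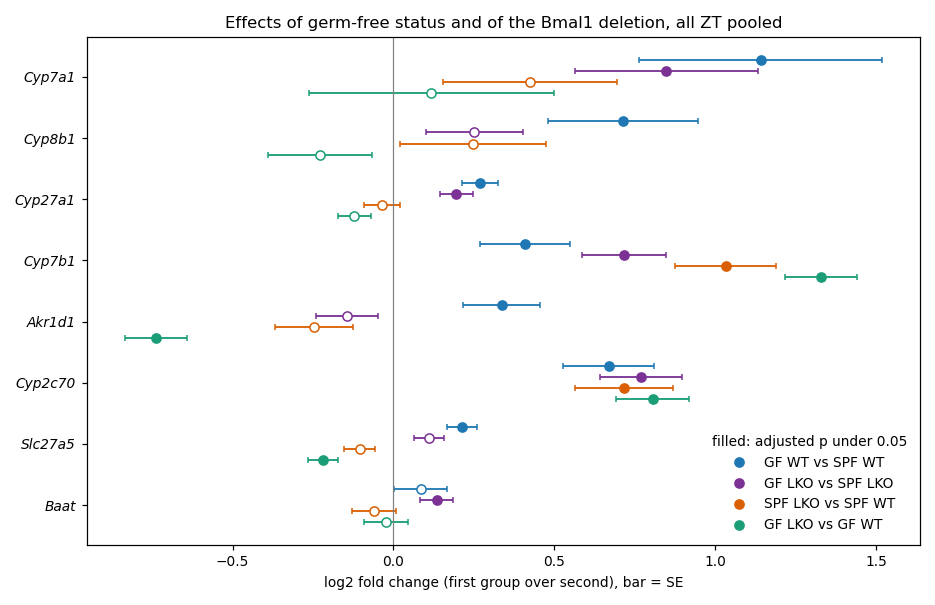
Log2 fold change (x axis) of each enzyme with its SE in 4 comparisons with ZT pooled, 18 libraries against 18, where filled points had an adjusted p under 0.05. The 2 microbiota comparisons lie to the right of 0 except for Akr1d1 in LKO mice (-0.14), while the genotype comparisons split, with Cyp7b1 (1.03 and 1.33) and Cyp2c70 (0.72 and 0.81) to the right and Akr1d1 (-0.25 and -0.74) to the left.

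The second question was what the deletion of Bmal1 changed under each microbial state. Each of these comparisons shares its groups with the microbiota comparisons above, so the same libraries enter both. In SPF mice 2 of the 8 members passed, both higher in LKO mice (Cyp7b1 and Cyp2c70), against 23.1% of 13159 genes. In GF mice 4 passed, against 30.8% of 12662 genes. Cyp7b1 and Cyp2c70 were higher in LKO mice and Akr1d1 and Slc27a5 lower.

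Cyp7b1 had the largest genotype effect of the members. In SPF mice it was 2.05-fold higher in LKO than in WT mice (log2 1.03 ± 0.16 SE, adjusted p = 5.3e-06), and in GF mice 2.51-fold higher (1.33 ± 0.11, adjusted p = 1.8e-12). Every GF LKO library (956 CPM or more) was above every GF WT library (789 or less). In SPF mice the ranges overlapped, and the 2 lowest of the 18 LKO values came from doubted libraries, with 289.6 CPM in the ZT18 library labelled SPF LKO replicate 1 (beside 849 and 930.4) and 439.9 in the ZT14 library labelled SPF LKO replicate 2 (beside 1337 and 1226). The lowest of the other 16 SPF LKO values was 541 CPM, and without the doubted libraries the fold was 2.29 (log2 1.197 ± 0.13, adjusted p = 3.5e-09).

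Cyp2c70 was 1.64-fold higher in SPF LKO mice (log2 0.72 ± 0.15 SE, adjusted p = 0.000482) and 1.75-fold higher in GF LKO mice (0.81 ± 0.11, adjusted p = 3.86e-07). Its lowest SPF LKO value, 577 CPM, was again from the ZT14 library labelled SPF LKO replicate 2, against 2526 and 2529.9 in the 2 SPF LKO mice sampled with it. The SPF groups overlapped (463 to 1443 and 577 to 2529.9 CPM), as did the GF groups (729 to 1940.4 and 1724 to 3187).

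Akr1d1, the reductase that saturates the steroid ring, moved the other way. In GF mice it fell from a median of 434 CPM in WT (257 to 565) to 244 in LKO mice (163 to 308), a 40.1% lower level (log2 -0.74 ± 0.10 SE, adjusted p = 8.12e-08). In SPF mice the medians were 314 and 252 CPM, and the difference of -0.25 ± 0.12 did not pass (adjusted p = 0.14). The highest SPF LKO value, 423 CPM, came from the ZT18 library labelled SPF LKO replicate 1, and without the doubted libraries Akr1d1 passed in SPF mice as well (-0.35 ± 0.12, adjusted p = 0.0267).

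Among GF mice, Slc27a5 was 14.1% lower with the deletion (log2 -0.22 ± 0.05 SE, adjusted p = 0.000242), with ranges of 936 to 1288 and 965 to 1479 CPM that overlapped. In SPF mice the difference was -0.11 ± 0.05 (adjusted p = 0.109), and -0.13 ± 0.05 without the doubted libraries (adjusted p = 0.0462). Cyp7a1, Cyp8b1, Cyp27a1 and Baat did not pass for genotype in either state, with log2 differences of 0.43 ± 0.27, 0.25 ± 0.23, -0.04 ± 0.06 and -0.06 ± 0.07 in SPF mice and 0.12 ± 0.38, -0.23 ± 0.16, -0.12 ± 0.05 and -0.02 ± 0.07 in GF mice. With ZT as a covariate Cyp7a1 passed in SPF mice (0.69, adjusted p = 0.0303). Cyp27a1 in GF mice (adjusted p = 0.0677) passed, at 0.0352 to 0.0498, without any one of GF WT ZT6 replicate 3, ZT10 replicate 1, ZT10 replicate 2 or ZT22 replicate 3, or GF LKO ZT6 replicate 1 or ZT10 replicate 3. Without the doubted libraries 4 of 8 members passed in SPF mice, against 27.9% of all genes, namely Cyp7b1, Cyp2c70, Slc27a5 and Akr1d1.

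Whether the genotype effect differed between GF and SPF mice was tested as an interaction over all 72 libraries. None of the 8 members passed by edgeR's quasi-likelihood test, where 0.438% of 13484 genes did. Akr1d1 alone of the 8 had an unadjusted p under 0.05, as did 6.5% of all genes (log2 -0.50 ± 0.16 SE, adjusted p = 0.209), and DESeq2 called 0. With ZT as a covariate Akr1d1 passed (-0.52, adjusted p = 0.0363). Without the doubted libraries and without ZT, 0 of 8 passed (0.356% of all genes) and Akr1d1 had -0.42 ± 0.16 (adjusted p = 0.517).

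The next comparison was between times of day within each group. Time was tested as 6 ZT means, and 4 of the 8 members varied in SPF WT mice (Cyp7a1, Cyp8b1, Cyp2c70 and Akr1d1, against 7.06% of 13907 genes). In SPF LKO mice 0 of 8 did (5.3% of 14028 genes), with 0 at an unadjusted p under 0.05 (24.6% of all genes) and 0 by DESeq2. In GF WT mice 4 did (Cyp7a1, Cyp2c70, Baat and Akr1d1, against 13.6% of 13203 genes), and in GF LKO mice 3 (Cyp7a1, Cyp2c70 and Akr1d1, against 26.7% of 13494 genes). With all libraries of 1 replicate number left out, at least 1 such fit lost each of these calls except that of Cyp7a1 in GF LKO mice, at adjusted p of 0.0506 to 0.276 in SPF WT, 0.0593 to 0.278 in GF WT and 0.0548 to 0.28 in GF LKO mice. Whether a gene varied in one group and not in another is no test of the difference, which the tests of the daily pattern give.

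**Figure D3:**
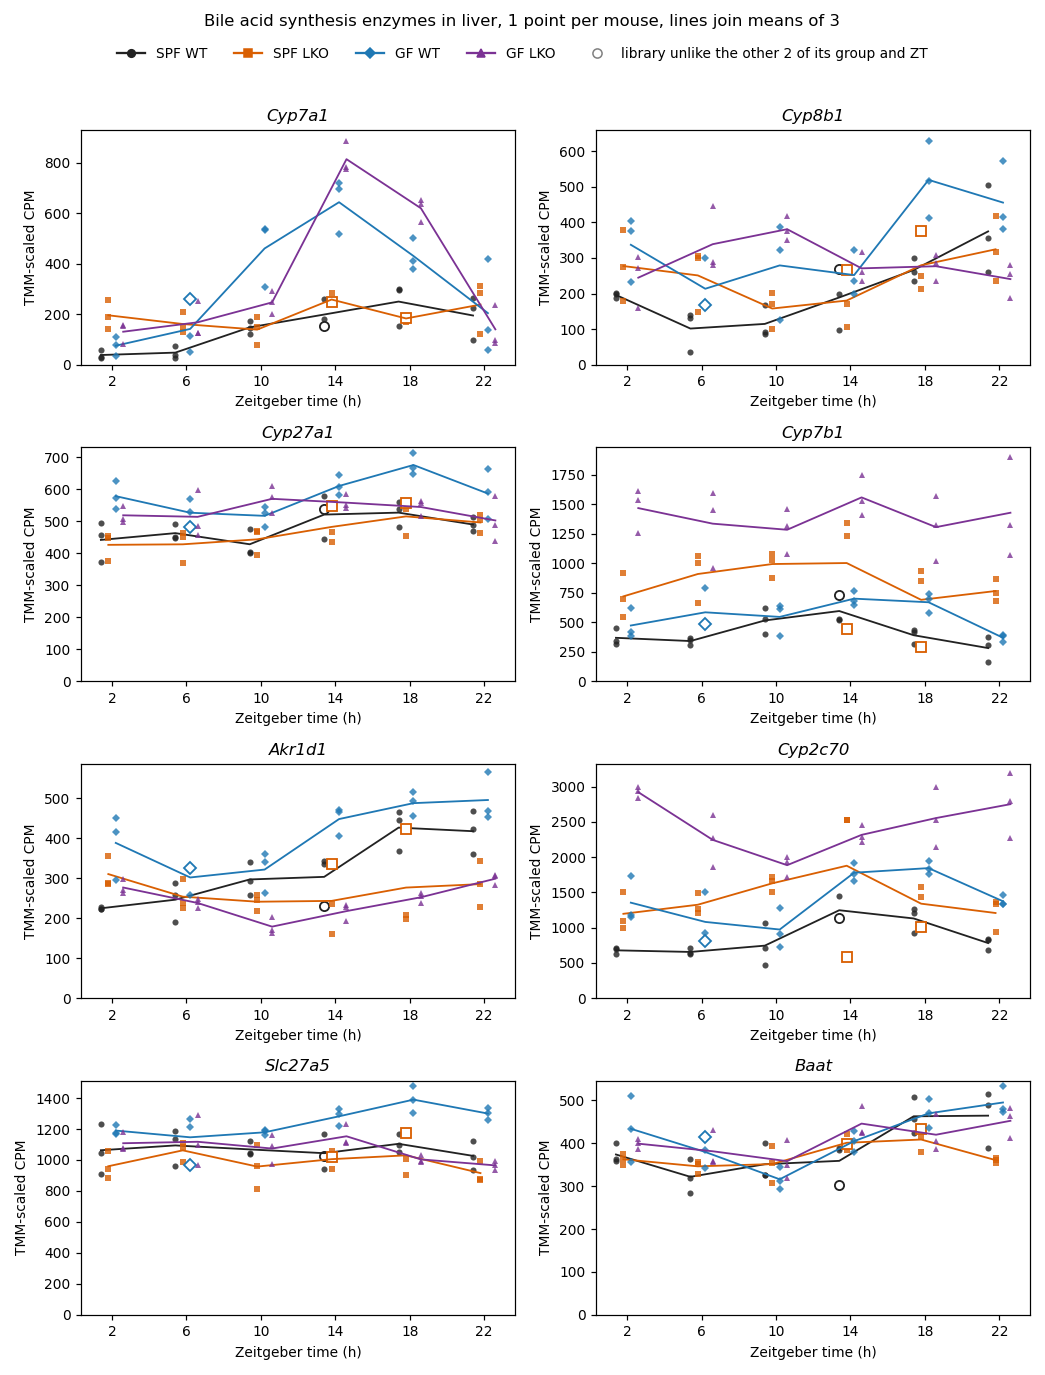
Level of the 8 enzymes in TMM-scaled CPM (y axis, from 0) against zeitgeber time in hours, 1 point per mouse and lines through the means of 3, with open symbols for the 4 libraries unlike the other 2 of their group and ZT. Cyp7a1 reached 774 to 885 CPM at ZT14 in GF LKO mice against 242 to 283 in SPF LKO mice, and the open SPF LKO symbols lie below the filled ones of the same ZT for Cyp7b1 and Cyp2c70.

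Cyp7a1 had the widest daily range. In SPF WT mice it was lowest at ZT2, with 29.5, 25.01 and 58.8 CPM, and highest at ZT18, with 299, 153 and 298, a 6.62-fold ratio of means (time effect adjusted p = 0.00207). In GF WT mice the low at ZT2 was 35.2, 78.1 and 111 CPM and the high at ZT14 was 697, 516 and 718, an 8.61-fold ratio (adjusted p = 0.0108). At the low the SPF WT and GF WT mice overlapped, and at ZT14 they did not.

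In SPF LKO mice Cyp7a1 had a mean of 258 ± 21.8 CPM (SD, n = 3) at its highest time, ZT14, and 139 ± 57.1 at its lowest, ZT10, a 1.86-fold ratio (adjusted p = 0.285). At ZT2, the low of the WT groups, SPF LKO mice had 189, 254 and 143 CPM. In GF LKO mice Cyp7a1 rose from 81.6, 156 and 153 CPM at ZT2 to 774, 784 and 885 at ZT14 and 638, 654 and 567 at ZT18, and was at 96.8, 238 and 84.3 at ZT22 (adjusted p = 3.79e-05). The ratio of highest to lowest mean in GF LKO mice was 6.25, close to that of SPF WT mice.

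A cosine of 24 h fitted to log2 CPM gave Cyp7a1 amplitudes of 1.42 ± 0.23 (SE) in SPF WT, 0.29 ± 0.17 in SPF LKO, 1.67 ± 0.27 in GF WT and 1.42 ± 0.21 in GF LKO mice. The fitted peaks lay at ZT 16.3 ± 0.618 h in SPF WT, ZT 14.2 ± 0.609 h in GF WT and ZT 14.8 ± 0.554 h in GF LKO mice. Without the doubted libraries the SPF LKO amplitude was 0.31 ± 0.18.

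Cyp8b1 peaked later. In SPF WT mice it had 139, 34.6 and 131 CPM at ZT6 and 507, 357 and 261 at ZT22 (3.70-fold between the means, adjusted p = 0.0371, fitted peak at ZT 20.3 ± 0.779 h). In GF WT mice the highest mean was at ZT18, with 629, 517 and 413 CPM, and the lowest at ZT6, with 173, 299 and 168 (2.44-fold, adjusted p = 0.058). In GF LKO mice the highest mean was at ZT10, with 350.3, 375 and 418 CPM, and the lowest at ZT22, with 281, 254 and 187. Time as 6 ZT means did not pass there (adjusted p = 0.0954), and the fitted peak lay at ZT 9.72 ± 1.32 h. By the 24 h cosine Cyp8b1 passed in both GF groups (adjusted p = 0.0145 in WT and 0.0341 in LKO mice).

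Akr1d1 in SPF WT mice rose from 223, 223 and 227 CPM at ZT2 to 446, 367 and 466 at ZT18 (1.90-fold, adjusted p = 0.00641). In GF WT mice it ran from a mean of 301 ± 38.3 CPM at ZT6 to 495 ± 61.2 at ZT22 (adjusted p = 0.0101). In GF LKO mice it was lowest at ZT10 with 203, 163 and 169 CPM and highest at ZT22 with 282, 304 and 308 (1.67-fold, adjusted p = 0.000373). The fitted peaks were ZT 18.2 ± 0.863 h in SPF WT, ZT 19.1 ± 0.622 h in GF WT and ZT 22.9 ± 0.477 h in GF LKO mice.

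Cyp2c70 varied 1.91-fold in SPF WT mice, from 654 ± 44.8 CPM at ZT6 to 1246 ± 171 at ZT14 (adjusted p = 0.0235), and 1.90-fold in GF WT mice, from 972 ± 278 at ZT10 to 1844 ± 91.5 at ZT18 (adjusted p = 0.0258). In GF LKO mice the lowest mean was also at ZT10 (1885 ± 144) but the highest was at ZT2 (2922 ± 75.8, adjusted p = 0.0232). In SPF LKO mice Cyp2c70 did not pass with all libraries (adjusted p = 0.592). Without the ZT14 library labelled SPF LKO replicate 2 it did (adjusted p = 0.0195), and without both doubted SPF LKO libraries 1 of 8 members, Cyp2c70, varied (adjusted p = 0.00741, against 5.69% of all genes), with an amplitude of 0.45 ± 0.09 in place of 0.24 ± 0.17.

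Baat rose from 316 ± 26.3 CPM at ZT10 to 495 ± 33.6 at ZT22 in GF WT mice (adjusted p = 0.0134). In SPF WT mice it had an adjusted p of 0.0608, and 0.0498 without SPF WT ZT14 replicate 3. Cyp7b1 was highest at ZT14 and lowest at ZT22 in both WT groups, 2.11-fold in SPF (adjusted p = 0.055) and 1.90-fold in GF mice (adjusted p = 0.0519, and 0.0323 without GF WT ZT6 replicate 3). Cyp27a1 and Slc27a5 did not pass for time as 6 ZT means in any group, and their ratios of highest to lowest mean were 1.31 or less. By the 24 h cosine Baat (adjusted p = 0.00911) and Cyp7b1 (0.017) passed in SPF WT mice. Cyp27a1 (0.0259) and Slc27a5 (0.0406) passed by it in GF WT mice.

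**Figure D4:**
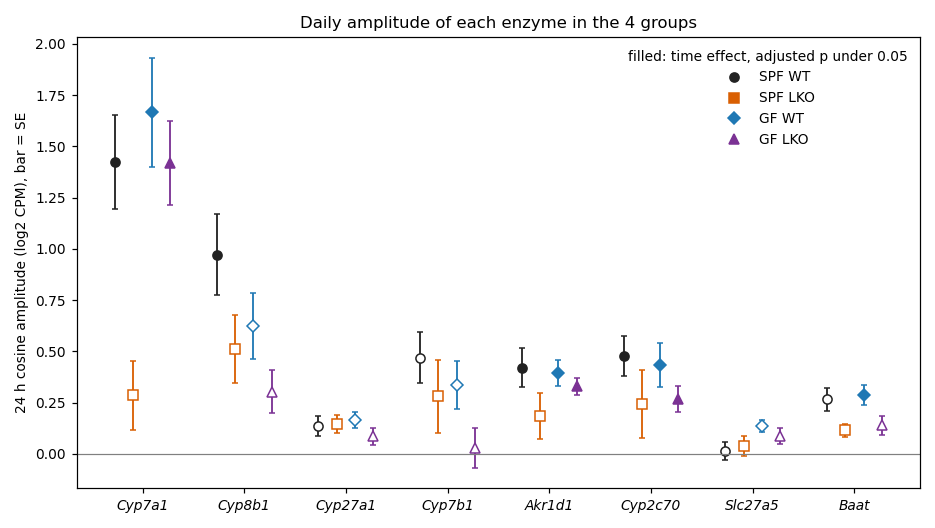
Amplitude of a 24 h cosine in log2 CPM (y axis) with its SE for each enzyme in the 4 groups of 18 libraries, where filled points had a time effect with an adjusted p under 0.05. The Cyp7a1 amplitude was 0.29 in SPF LKO mice and 1.42 to 1.67 in the other 3 groups.

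Differences in the 24 h pattern between groups were tested by the interaction of cosine and sine terms with the group. Between GF WT and SPF WT mice 0 of 8 members passed, where 0.047% of 12776 genes did, and Cyp7a1 had an unadjusted p of 0.045 (adjusted p = 0.402), the only one of the 8 under 0.05 (12.1% of all genes), while DESeq2 called 0. Between GF LKO and SPF LKO mice 2 passed, Cyp7a1 (adjusted p = 0.00904) and Cyp8b1 (adjusted p = 0.0255), against 5.34% of 13010 genes. Between SPF LKO and SPF WT mice 0 passed, against 1.12% of 13159 genes, with 4 of 8 at an unadjusted p under 0.05, where 13.5% of all genes were, and 1 (Cyp7a1) called by DESeq2. Between GF LKO and GF WT mice 3 passed, Cyp8b1 (adjusted p = 0.00437), Akr1d1 (adjusted p = 0.00984) and Slc27a5 (adjusted p = 0.0282), against 6.38% of 12662 genes. All 5 of these calls were lost in 2 or 3 of the 3 fits with 1 replicate number left out.

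Between GF LKO and GF WT mice no difference in the Cyp7a1 pattern passed (adjusted p = 0.882), which does not show the patterns to be alike. Between SPF LKO and SPF WT mice Cyp7a1 had an adjusted p of 0.0549. It was 0.0306 with SPF WT ZT14 replicate 3 left out and 0.0437 with the ZT14 library labelled SPF LKO replicate 2 left out. Without all doubted libraries 2 of 8 passed in that comparison (2.77% of all genes), Cyp7a1 (adjusted p = 0.0332) and Akr1d1 (adjusted p = 0.00105), and Akr1d1's fitted peak in SPF LKO mice lay at ZT 2.18 ± 0.965 h. Between GF LKO and SPF LKO mice 3 passed without them (3.07% of all genes), namely Cyp7a1 (adjusted p = 0.013), Cyp8b1 (adjusted p = 0.0182) and Cyp2c70 (adjusted p = 0.00233). Between the WT groups 0 passed (0.0782%).

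At single ZT, tests of 3 mice against 3 were fitted on the 12 libraries of that time with 4 group means. For GF WT against SPF WT mice, 2 of 8 members passed at ZT2 (10.1% of all genes tested), ZT6 gave 0 (2.62%), ZT10 gave 1 (2.89%), ZT14 gave 1 (0.0751%), ZT18 gave 1 (0.983%) and ZT22 gave 1 (0.516%), and in each call the GF mice were higher. Cyp7a1 was 3.13-fold higher at ZT10 (307 to 538 CPM against 122 to 174, adjusted p = 0.0114) and 3.24-fold higher at ZT14 (516 to 718 against 153 to 259.5, adjusted p = 0.00453). Cyp8b1 passed at ZT18 (1.93-fold, adjusted p = 0.0468), Cyp2c70 at ZT2 and ZT22 (2.01-fold and 1.78-fold) and Akr1d1 at ZT2 (1.74-fold). At ZT6 an unadjusted p under 0.05 was found for 4 of 8 and for 25% of all genes (2 of the 8 called by DESeq2), and Cyp2c70 passed without GF WT ZT6 replicate 3 (adjusted p = 0.0307, against 3.69% of all genes). Leaving out 1 of the 6 libraries of a comparison at a time, 3 of these 6 calls were kept in every fit (Cyp2c70 and Akr1d1 at ZT2 and Cyp7a1 at ZT10). Cyp7a1 at ZT14 was lost without SPF WT ZT14 replicate 2 (adjusted p = 0.0527), Cyp2c70 at ZT22 was lost in 5 of 6 fits and Cyp8b1 at ZT18 in all 6.

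For GF LKO against SPF LKO mice, 2 passed at ZT2 (8.92%), ZT6 gave 0 (0.309%), ZT10 gave 0 (0.982%), ZT14 gave 1 (0.0601%), ZT18 gave 2 (3.71%) and ZT22 gave 1 (2.25%), again all higher in GF mice. Cyp7a1 was 3.15-fold higher at ZT14 (774 to 885 CPM against 242 to 283, adjusted p = 0.0138) and 3.41-fold higher at ZT18 (567 to 654 against 168 to 194, adjusted p = 0.00301). Without the doubted libraries these folds were 3.08 and 3.42 (adjusted p = 0.00194 and 0.00921). Cyp2c70 was 2.43-fold higher at ZT2, 1.91-fold at ZT18 and 2.28-fold at ZT22, and Cyp7b1 2.03-fold at ZT2, but at ZT18 Cyp2c70 no longer passed without the ZT18 library labelled SPF LKO replicate 1 (1.69-fold, adjusted p = 0.0542, where 0.45% of all genes passed). With 1 library left out at a time, 3 of the 6 calls were kept in every fit (Cyp2c70 at ZT2 and ZT22 and Cyp7a1 at ZT18), while Cyp7a1 at ZT14 was lost without any one of its 3 GF LKO libraries (adjusted p up to 0.114), Cyp2c70 at ZT18 also without GF LKO ZT18 replicate 1 or 2 (up to 0.0852) and Cyp7b1 at ZT2 without GF LKO ZT2 replicate 3 or SPF LKO ZT2 replicate 3 (up to 0.0626). At ZT6 an unadjusted p under 0.05 was found for 2 of 8 (17.5% of all genes, 1 of the 8 called by DESeq2), and at ZT10 for 4 of 8 (14.2% of all genes, 0 by DESeq2).

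For SPF LKO against SPF WT mice, 3 passed at ZT2 (6.89%), ZT6 gave 2 (7.26%), ZT10 gave 2 (11.9%), ZT14 gave 0 (0%), ZT18 gave 0 (0.015%) and ZT22 gave 1 (3.31%), all higher in LKO mice. Cyp7a1 was 5.19-fold higher at ZT2 (143 to 254 CPM against 25.01 to 58.8, adjusted p = 0.00358), the largest fold of a member at any single ZT. Cyp7b1 was 1.93- to 2.72-fold higher at ZT2, ZT6, ZT10 and ZT22, and Cyp2c70 1.77- to 2.20-fold at ZT2, ZT6 and ZT10. At ZT2 the calls of Cyp7b1 and Cyp2c70 were lost without SPF LKO ZT2 replicate 1 or SPF WT ZT2 replicate 1 (adjusted p up to 0.0839), and the other 6 of the 8 calls were kept in every fit without 1 library. The 2 times without calls were those of the doubted libraries, where 1 of 8 members (ZT14) and 3 of 8 (ZT18) had a p under 0.05 before adjustment (11.1% and 10.6% of all genes), and DESeq2 called 0 at both. With the doubted libraries left out, 3 passed at ZT14 (5.51% of all genes), Cyp7b1 (2.46-fold, adjusted p = 0.0001), Cyp2c70 (1.96-fold) and Akr1d1 (0.586-fold), and 2 passed at ZT18 (4.63%), Cyp7b1 (2.30-fold) and Akr1d1 (0.480-fold, adjusted p = 0.000162).

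For GF LKO against GF WT mice, 2 passed at ZT2 (4.21%), ZT6 gave 2 (11.7%), ZT10 gave 4 (13.1%), ZT14 gave 2 (6.1%), ZT18 gave 3 (8.43%) and ZT22 gave 4 (4.44%). Cyp7b1 was 2.23- to 3.86-fold higher in LKO mice at the 5 times other than ZT18, where it was 1.98-fold higher and did not pass (adjusted p = 0.081). Cyp2c70 was 1.94- to 2.14-fold at ZT2, ZT6, ZT10 and ZT22. Akr1d1 was lower in LKO mice at ZT10, ZT14, ZT18 and ZT22, between 0.486-fold (193 to 232 CPM against 406 to 471 at ZT14, adjusted p = 0.0217) and 0.6003-fold (282 to 308 against 451 to 565 at ZT22, adjusted p = 0.0112). Cyp7a1 was lower at ZT10 (0.536-fold, 199 to 291 CPM against 307 to 538, adjusted p = 0.0483), Cyp8b1 at ZT18 (0.541-fold, 234 to 309.7 against 413 to 629, adjusted p = 0.0193), and Slc27a5 at ZT18 and ZT22 (0.733- and 0.739-fold). Of these 17 calls 8 were kept in every fit without 1 library, namely Cyp7b1 at ZT2, ZT6, ZT10 and ZT22, Cyp2c70 at ZT2, ZT6 and ZT22, and Akr1d1 at ZT10. The other 9 were lost in 2 to 6 of their 6 fits, with adjusted p up to 0.166.

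Other enzymes and partners of the pathway were read from a list of 17 genes, of which 15 or 16 were tested. Without microbes, 2 rose and 2 fell in WT mice, and 2 rose and 2 fell in LKO mice, where 31.8% and 36.4% of all genes passed. In WT mice the hydroxylases Cyp46a1 (log2 -0.97 ± 0.22 SE) and Cyp39a1 (-0.96 ± 0.25) fell, and Fdx1 (0.39 ± 0.11), an electron donor of mitochondrial P450 enzymes, and Abcd3 (0.24 ± 0.08), a peroxisomal importer, rose. In LKO mice Por (-0.58 ± 0.22), the electron donor of microsomal P450 enzymes, and the peroxisomal Hsd17b4 (-0.18 ± 0.05) fell, and Scp2 (0.28 ± 0.06) and Amacr (0.16 ± 0.06), which act on the side chain, rose. The list medians were 0.07 and -0.06.

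With the deletion, 2 of these enzymes rose and 7 fell in SPF mice (list median -0.13), and 3 rose and 7 fell in GF mice (-0.26). Of all genes, 23.1% and 30.8% passed in these comparisons, split nearly evenly between higher (1527 and 1970) and lower (1516 and 1929). Por fell in both, by 1.04 ± 0.24 on the log2 scale in SPF and 1.93 ± 0.26 in GF mice (adjusted p = 0.00128 and 1.17e-07). Its mean was 266 ± 120.3 CPM in SPF WT, 129 ± 107 in SPF LKO, 329 ± 209.7 in GF WT and 86.4 ± 31.5 in GF LKO mice. In SPF mice Cyp46a1 (-1.37 ± 0.23), Cyp39a1 (-0.88 ± 0.23), Hsd17b4 (-0.38 ± 0.06) and the very-long-chain ligase Slc27a2 (-0.34 ± 0.09) fell too and Scp2 (0.32 ± 0.06) rose, although Cyp46a1 averaged only 1.39 CPM in SPF WT mice. The highest SPF LKO value of Por, 533 CPM, exceeded the highest SPF WT value of 517. In GF mice Acnat2 (0.96 ± 0.28) and Scp2 (0.49 ± 0.06) rose and Hsd17b4 (-0.60 ± 0.05), Abcd3 (-0.58 ± 0.08) and Acot8 (-0.51 ± 0.06) fell. The interaction passed for 1 of 16 (0.438% of all genes), Cyp46a1 (-1.70 ± 0.43, adjusted p = 0.0477), whose mean in GF LKO mice was 0.0777 CPM.

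Regulators known for Cyp7a1 or Cyp8b1 were read from a list of 20 genes, of which 19 or 20 were tested. Without microbes 1 rose and 1 fell in WT mice (31.8% of all genes passed), Nr1h3 (log2 0.15 ± 0.06 SE), which encodes the oxysterol receptor LXR alpha, and Mafg (-0.32 ± 0.06), a repressor of bile acid genes downstream of FXR. In LKO mice 2 rose and 5 fell (36.4% of all genes passed), among them Nr1d2 (-0.79 ± 0.23), Ppara (-0.37 ± 0.11), Insig2 (0.31 ± 0.12), Mafg (-0.27 ± 0.08), Hlf (-0.26 ± 0.07) and Nr1h3 (0.26 ± 0.07). The FXR gene Nr1h4 (0.11 ± 0.10 in WT and -0.01 ± 0.07 in LKO mice) and its target Nr0b2, which encodes the repressor SHP (-0.30 ± 0.27 and -0.35 ± 0.24), did not pass in either and are named for their role.

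With the deletion, 2 regulators rose and 10 fell in SPF mice, and 1 rose and 8 fell in GF mice, with list medians of -0.22 and -0.20, where 23.1% and 30.8% of all genes passed. The clock genes Nr1d1 (-2.93 ± 0.53 in SPF and -2.80 ± 0.48 in GF mice), Nr1d2 (-1.93 ± 0.31 and -2.48 ± 0.28) and Dbp (-2.29 ± 0.53 and -2.78 ± 0.57) fell in both states. Insig2, which restrains sterol synthesis and is a target of the Nr1d1 product, rose in both (0.91 ± 0.18 and 1.13 ± 0.24). The lipid regulator Ppara had log2 changes of -0.67 ± 0.11 (SPF) and -0.80 ± 0.14 (GF), and both passed. Klb, the co-receptor for the intestinal signal that represses Cyp7a1, had log2 changes of -0.45 ± 0.08 in SPF and -0.53 ± 0.07 in GF mice, and both passed. Fgfr4, from the same list, went the other way in SPF mice (0.23 ± 0.07, adjusted p = 0.0112). In GF mice it did not pass (0.11 ± 0.10, adjusted p = 0.427). Nr0b2 fell in SPF mice (-0.61 ± 0.22, adjusted p = 0.0412), and its change in GF mice did not pass (-0.66 ± 0.29, adjusted p = 0.0771). Bhlhe41 fell in SPF mice (-2.96 ± 0.45, from a mean of 2.00 CPM in SPF WT mice). The interaction passed for 0 of 20, where only 0.438% of all genes passed, so this count is no result about the regulators. Time passed for 9 of 20 in SPF WT (7.06% of all genes), 4 of 20 in SPF LKO (5.3%), 11 of 20 in GF WT (13.6%) and 13 of 19 in GF LKO mice (26.7%).

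Across the 24 means of group and ZT, the genes with patterns most like a member were ranked by Pearson's r of mean log2 CPM among 10710 genes. These points share libraries and groups, so r is a description only. Cyp7a1 was most like Fastkd1 (r = 0.87), Gpt (0.85), Mmachc (0.83), Slc22a3 (0.83) and Ppif (0.83). Cyp8b1 was most like Spryd3 (0.83), Ttc21b (0.80), Srebf2 (0.80), Ackr2 (0.78) and Cyp20a1 (0.77). Cyp7b1 was most like Rarres1 (0.98), Fars2 (0.96), Acsm2 (0.94), Aadat (0.94) and Lancl1 (0.94). Among the members themselves the highest r was between Cyp7b1 and Cyp2c70 (0.86) and the lowest between Cyp7b1 and Akr1d1 (-0.53), while Cyp7a1 and Cyp8b1 had an r of 0.39.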

How the data were processed

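Liver mRNA of 72 mice was sequenced as single-end reads, 1 library per mouse, with groups taken from the labels. The authors aligned reads to mm10 with STAR 2.6.1b and, per the file headers, counted them per gene over exons of Ensembl release 97 with featureCounts 2.0.0. The counting was without strand and left out reads that overlapped several genes. The deposited values are raw counts for 55573 genes, of which 22224 had none, and all columns of sample values were used. Library totals ran from 17369927 to 22076113 counts.

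From the counts, genes were filtered with filterByExpr, scaled by TMM and tested with edgeR 4.0.16 (R 4.3.3, quasi-likelihood F tests, Benjamini-Hochberg adjustment over all genes tested, threshold 0.05). The pooled, interaction, time, rhythm-difference and single-ZT tests were first run on simulated counts with known changes, by edgeR and DESeq2. The other settings were not simulated. ZT was pooled in group comparisons. Where the study's methods used DESeq2 and a rank test of rhythm, edgeR's F tests over 6 ZT means and over 24 h cosine and sine terms were used instead. DESeq2 1.42.0, no filter, ZT as a covariate, a replicate block, ZT means by group in the rhythm test, and leaving out libraries were alternatives, and amplitudes came from a 24 h cosine on log2 CPM with a prior count of 2.

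The members and gene lists were chosen with earlier results of these data known. All 9 members were named, with Arntl and the 5 genes most like each of 3 members. Per list and comparison at most 6 genes that passed were named, largest log2 fold change first. Npas2, Nr1h4, Nr0b2, Fgfr4 and, for genotype in SPF mice, Klb were named outside this rule after values were seen. Intervals are SE or SD over mice.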

Additional observations from a re-analysis of the deposited data

Results flagged for a closer look

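The 24 h patterns of 5 gene and comparison pairs differed between groups by edgeR's test of the interaction between group and cosine and sine terms. Between GF LKO and SPF LKO mice these were Cyp7a1 (adjusted p = 0.00904), whose log2 amplitude was 1.42 ± 0.21 (SE) without and 0.29 ± 0.17 with microbes, and Cyp8b1 (adjusted p = 0.0255), whose fitted peak lay at ZT 9.72 ± 1.32 h without and ZT 23.03 ± 1.24 h with microbes. For the deletion in GF mice they were Cyp8b1 (adjusted p = 0.00437), with fitted peaks at ZT 9.72 ± 1.32 h and ZT 20.3 ± 0.989 h, Akr1d1 (adjusted p = 0.00984), with peaks at ZT 22.9 ± 0.477 h and ZT 19.1 ± 0.622 h, and Slc27a5 (adjusted p = 0.0282), with peaks at ZT 8.87 ± 1.76 h and ZT 18.3 ± 0.844 h and amplitudes of 0.09 ± 0.04 and 0.14 ± 0.03. The GF LKO libraries enter both comparisons. For time as 6 ZT means Cyp8b1 did not pass in SPF LKO (adjusted p = 0.272), GF LKO (0.0954) or GF WT mice (0.058). By the 24 h cosine Cyp8b1 passed in both GF groups but not in SPF LKO mice (adjusted p = 0.0506). Slc27a5 did not pass for time as 6 ZT means in either GF group. By the 24 h cosine it passed in GF WT (adjusted p = 0.0406) but not in GF LKO mice (0.196). With the ZT means fitted by group the Cyp8b1 difference between LKO groups had an adjusted p of 0.204, and the Slc27a5 and Akr1d1 differences had 0.126 and 0.0833. With no filter on low counts the Slc27a5 difference had 0.147. With all libraries of 1 replicate number left out, the differences between LKO groups passed in none of the 3 fits (adjusted p 0.0847 to 0.113 for Cyp7a1 and 0.157 to 0.175 for Cyp8b1), nor did that of Slc27a5 between GF groups (0.136 to 0.271). Between GF groups Cyp8b1 (0.0997 and 0.0682) and Akr1d1 (0.253 and 0.11) did not pass without number 1 or 2.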

How the results depend on the processing

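Of the alternative counts of members called, 125 stayed within 1.5 times of the count given and 37 did not. The cause was not tested. Where libraries were left out, their smaller number cannot be told apart from the loss of those mice. Leaving out all libraries of 1 replicate number, or 1 library where this was fitted (for time and rhythm, the doubted ones), gave 3 to 7 members called between GF and SPF WT mice, 3 to 6 between LKO mice, 0 to 5 for time in SPF WT, 0 to 1 in SPF LKO, 0 to 5 in GF WT and 1 to 3 in GF LKO mice, and, for the rhythm difference, 0 to 3 between LKO groups, 0 to 1 between SPF groups and 0 to 3 between GF groups. Without all doubted libraries, 4 members passed for genotype in SPF mice, 1 for time in SPF LKO mice, 2 for the rhythm difference in SPF mice and 14 over the 6 ZT for genotype in SPF mice. Without SPF LKO ZT14 replicate 2 alone 1 passed for time in SPF LKO mice and 1 for the rhythm difference in SPF mice, and without SPF WT ZT14 replicate 3 also 1. With ZT as a covariate 1 passed in the interaction. DESeq2 called 7 for time in GF WT mice, 1 for the rhythm difference in SPF mice and 15 over the 6 ZT between GF and SPF WT mice (6 by edgeR). The 24 h cosine called 7 for time in GF WT mice. With ZT means by group, the rhythm difference was called for 1 member between LKO groups, 1 between SPF groups and 1 between GF groups. With no filter on low counts, time passed for 4 in SPF LKO mice and the rhythm difference in SPF mice for 1. Over the 6 ZT there were then 18 and 16 calls for microbes in WT and LKO mice (6 and 6 with the filter). For genotype there were 19 and 26 in SPF and GF mice (8 and 17 with it). The share of all genes passing is not given for DESeq2, no filter, the cosine, ZT means by group, the ZT covariate or a replicate number left out. Counts of members under these settings are therefore no result about the members.

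A change of sign was seen in 7 of the values of single members, none of which passed. These were Cyp27a1 for genotype in SPF mice (0.00082 without replicate 3, and -0.0712 to 0.00082 over such fits), Cyp7a1 for genotype in GF mice (-0.0168 without GF LKO ZT14 replicate 3, and -0.0168 to 0.26 over the fits with a replicate left out), Baat for genotype in GF mice (0.0228 without replicate 1 and 0.000606 without GF WT ZT22 replicate 3, lowest -0.0538), and in the interaction Cyp2c70 (-0.0036 without replicate 2, highest 0.134, and -0.0587 without all doubted libraries) and Baat (-0.038 without replicate 2, highest 0.0885). Of the other values of single members 980 kept their side of the threshold, 59 passed only in the alternative and 66 only in the fit given.

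The labels do not say whether replicate numbers pair the mice. The correlation of deviations between same-numbered libraries had medians of 0.0167, -8.48e-05, 0.0234 and -0.0198 over 18 pairs in the 4 comparisons. The highest was 0.305, and 2 to 5 of 18 were over 0.1, which neither shows nor excludes a pairing. With a replicate block, no count of members called moved by over 1.5 times, with 7 and 5 for microbes in WT and LKO mice, while Cyp8b1 lost its time effect in SPF WT mice (adjusted p = 0.0603), and Baat in SPF WT (0.0335) and Cyp7b1 in GF WT mice (0.0329) gained one.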
